A study of Mus musculus with 15 samples.

Results

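The NAIP-NLRC4 genes were examined in fetal mouse intestine at stage e16.5. They are 5 genes, Naip1, Naip2, Naip5, Naip6 and Nlrc4, found by Entrez ID among the 36528 gene IDs of each deposited table, and all 5 passed the filter on low counts that left 18370 genes for testing. RNA-seq libraries were made from 3 genotypes with 5 libraries each. The C362A group carried a knockin of the catalytically dead Casp8 C362A allele together with an MLKL knockout. The KO group lacked both Casp8 and MLKL. The WT group had wildtype Casp8 and also lacked MLKL, so the knockout of MLKL, the effector of necroptosis, was common to all 15 libraries. The labels mark the tissue, small intestine, as inflamed in the C362A libraries and as normal in the KO and WT libraries. They give no litter, sex or batch, and do not say whether libraries came from separate animals, so p-values measure the spread between these libraries, which may be technical.

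NAIP proteins are cytosolic sensors that bind bacterial proteins and then recruit NLRC4 into a wheel-shaped inflammasome. In the mouse, NAIP5 and NAIP6 bind flagellin, NAIP2 binds the inner rod of the type III secretion system, and NAIP1 binds its needle, so only part of the family senses flagellin. Assembled NLRC4 activates caspase-1, directly or through the adaptor ASC, and caspase-8 can join the same complex. In adult gut epithelium the pathway is known for expelling infected enterocytes and for release of IL-18.

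The 4 Naip genes lie side by side on the minus strand of chromosome 13 (GRCm38.p6, RefSeq), and their similarity bears on every count below. Naip2 spans chr13:100144063-100202122, Naip5 chr13:100211735-100250930, Naip6 chr13:100281121-100316616 and Naip1 chr13:100407770-100452864. Nlrc4 lies apart, at chr17:74426255-74459144. The deposited counts hold only reads that aligned uniquely, and reads were 50 bases long. A stretch of coding exon in which Naip5 and Naip6 cannot be told apart is shown first, on the minus strand in the order in which the RNA is read. It lies in exon 5 of Naip5 (chr13:100230703-100230752), exon 6 of Naip6 (chr13:100304387-100304436), exon 6 of Naip1 (chr13:100433241-100433290) and exon 7 of Naip2 (chr13:100179387-100179436), by the longest coding GENCODE transcript of each gene. Capitals mark bases that differ from Naip5.
Naip5: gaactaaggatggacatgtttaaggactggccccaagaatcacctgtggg
Naip6: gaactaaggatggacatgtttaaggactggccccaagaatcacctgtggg
Naip1: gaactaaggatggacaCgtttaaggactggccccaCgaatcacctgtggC
Naip2: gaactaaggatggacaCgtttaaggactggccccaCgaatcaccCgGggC
A read from this stretch cannot be assigned to either Naip5 or Naip6, whereas Naip1 and Naip2 differ from Naip5 at 3 and 5 bases. A second stretch shows a place where all 4 copies differ. It lies in exon 9 of Naip5 (chr13:100223339-100223388), exon 10 of Naip6 (chr13:100300626-100300675), exon 10 of Naip1 (chr13:100427268-100427317) and exon 11 of Naip2 (chr13:100162007-100162056), with capitals used as before.
Naip5: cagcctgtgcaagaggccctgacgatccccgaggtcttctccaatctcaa
Naip6: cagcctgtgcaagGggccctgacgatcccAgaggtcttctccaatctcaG
Naip1: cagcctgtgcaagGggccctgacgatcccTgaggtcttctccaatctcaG
Naip2: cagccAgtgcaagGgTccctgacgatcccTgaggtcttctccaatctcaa

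Across whole transcripts, most windows of 50 bases still identified their gene. Of all such windows, 80.6% in Naip2, 78.5% in Naip6, 67.5% in Naip1 and 63.1% in Naip5 occurred in no GENCODE transcript of another gene on either strand, against 98.9% in Nlrc4. Naip5 was the least distinct, with 22.3% of its windows also in Naip6 and 14.5% in the pseudogene Naip3. Naip1 shared 23.2% of its windows with Naip3 and 13.1% with Naip5. The median Naip5 window stood 2 mismatches from its closest match in Naip6, and 5 from that in Naip2. Matching used transcripts and not the genome, so matches in introns or between genes were not counted.

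**Figure D1:**
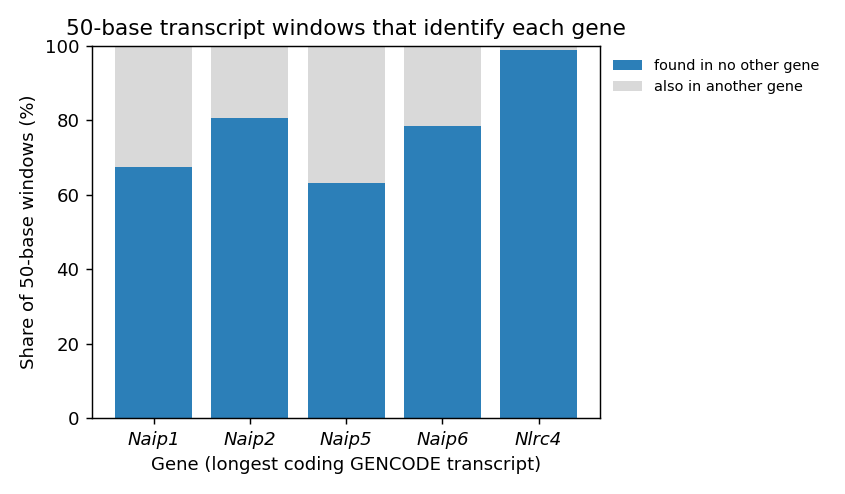
Share of 50-base windows (vertical axis, percent) of the longest coding transcript of each gene (horizontal axis) that occurs in no transcript of another gene, in blue, with the remainder in grey. Naip5 had the lowest share, 63.1%, and Nlrc4 the highest, 98.9%.

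All 5 genes were clearly expressed before birth. Library totals ran from 31896399 to 38532127 counts, and the 5 genes had 901 to 5053 counts per library, so counting error was small beside the spread between libraries. Levels of the 5 genes were first compared with each other per length, on the authors' size-factor-adjusted RPKM. In WT intestine Naip6 averaged 15.3 ± 4.61 RPKM, Naip1 14.9 ± 4.52, Naip5 14.2 ± 3.89 and Naip2 13.5 ± 1.64, and Nlrc4 was lowest at 7.77 ± 1.38 (SD, n = 5). Neighbours among the 4 Naip genes differed by less than the larger SD of the pair, in WT and in KO alike. The step down to Nlrc4 was larger than the SD in both.

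In C362A intestine the order was different, with Naip2 first at 13.2 ± 1.34 RPKM, then Naip1 at 11.1 ± 2.97, Naip6 at 10.4 ± 5.07, Naip5 at 9.09 ± 3.97 and Nlrc4 at 6.59 ± 0.667 (SD, n = 5). No step in that order exceeded the larger SD of the 2 genes. Naip2 was the highest of the 4 Naip genes in 4 of 5 C362A libraries, 0 of 5 KO libraries and 1 of 5 WT libraries on this scale. When counts were divided by the number of distinguishing windows in place of gene length, Naip1 led in C362A at 17.2 ± 4.68 CPM per 1000 windows, beside 17.1 ± 1.68 for Naip2. In WT, Naip5 led on that scale at 24.1 ± 6.54 and Naip2 was the lowest Naip gene at 17.4 ± 2.10. The leading gene in C362A and in WT therefore differed between the 2 scales. In KO, Naip1 was first and Naip2 last of the Naip genes on both, and in WT Naip2 was last of them on both. Nlrc4 was lowest in each genotype both ways.

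Over all 15 libraries the flagellin sensors varied most and Naip2 varied least. From here levels of single genes are CPM, counts scaled to library size with TMM factors. Naip5, which senses flagellin, had 32.5, 52.2, 38.5, 40.7 and 88.1 CPM in C362A replicates 1 to 5. It had 85.0, 91.5, 74.2, 56.6 and 87.6 CPM in KO replicates, and 50.4, 81.6, 78.1, 109.6 and 72.2 CPM in WT replicates. Replicates 1, 3 and 4 of C362A lay below every KO and WT library, replicate 2 lay below every KO library, and replicate 5 lay among the highest of all 15.

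Naip6, the second flagellin sensor, followed the same libraries. It had 37.5, 80.1, 54.6, 61.9 and 131 CPM in C362A replicates 1 to 5, 99.8, 123, 108, 74.5 and 132 CPM in KO, and 62.0, 112, 109, 152 and 102 CPM in WT. C362A replicates 1, 3 and 4 were again below every other library, with replicate 4 only just under the lowest WT library, and replicate 5 was close to the highest KO library.

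Naip1, the needle sensor, had 37.5, 62.5, 64.4, 64.0 and 85.8 CPM in C362A, 95.6, 93.3, 104, 87.8 and 90.3 CPM in KO, and 52.0, 88.7, 97.3, 117 and 68.2 CPM in WT. Every C362A library was below every KO library, while the WT libraries overlapped both. This separation of C362A below KO was found for 1.74% of all genes tested.

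Naip2, the rod sensor, stayed within a narrow range. It had 64.9, 64.1, 70.3, 72.9 and 56.1 CPM in C362A, 72.4, 67.6, 78.6, 74.2 and 57.8 CPM in KO, and 53.9, 73.3, 69.2, 73.4 and 65.1 CPM in WT. The 3 groups overlapped throughout, and the coefficient of variation over all 15 libraries was 10.7%, against 32.9% for Naip5, 34.3% for Naip6 and 26.7% for Naip1. Within genotypes the order was not the same. In KO, Naip1 (6.48%) and Nlrc4 (9.34%) varied less than Naip2 (11.3%), and in WT, Naip1 varied by 30.0%, beside 29.8% for Naip6 and 27.1% for Naip5. C362A replicate 5, which had the most Naip1, Naip5 and Naip6 of its group, had the least Naip2.

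Nlrc4, the shared adaptor of all NAIPs, had 28.0, 34.0, 28.2, 34.7 and 33.5 CPM in C362A, 38.3, 41.4, 43.8, 34.1 and 38.4 CPM in KO, and 28.9, 39.3, 36.0, 46.9 and 35.4 CPM in WT. All C362A libraries but replicate 4 were below the lowest KO library, and the WT libraries overlapped both groups. Its coefficient of variation was 15.2%.

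**Figure D2:**
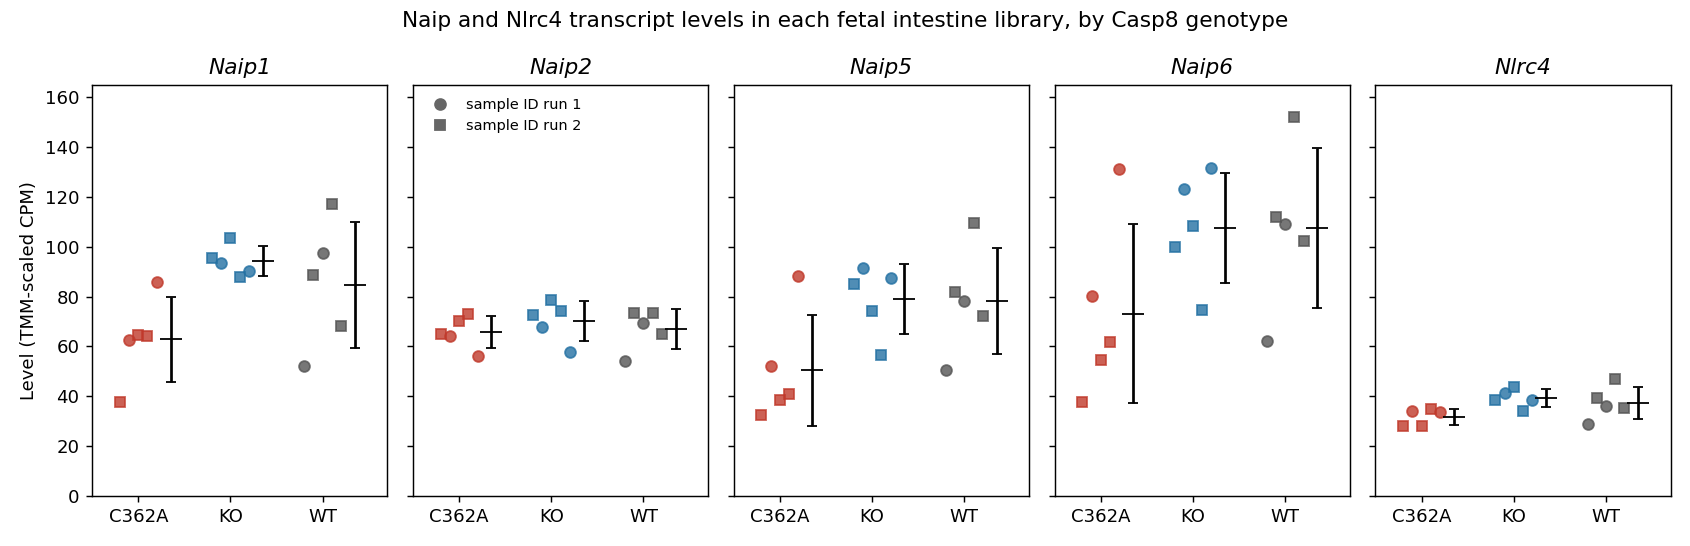
Level of each gene (vertical axis, TMM-scaled CPM) in each library, by genotype, with group mean and SD in black (n = 5). Circles and squares are the 2 runs of consecutive sample ID numbers. For Naip5 and Naip6 the 3 C362A squares are the lowest points of their panels, and the Naip2 points stay between 53.9 and 78.6 CPM.

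The comparison of C362A with WT sets an inactive caspase-8 protein against the wildtype protein where necroptosis through MLKL is blocked. The labels also call the C362A tissue inflamed and the WT tissue normal, so allele and tissue state cannot be told apart. All 5 genes had a lower mean in C362A, but none passed the test. Naip5 averaged 50.4 ± 22.3 CPM in C362A and 78.4 ± 21.3 CPM in WT, a log2 fold change of −0.64 (SE 0.26, edgeR adjusted p = 0.291). Naip6 averaged 73.1 ± 36.0 and 107.6 ± 32.1 CPM (−0.56, SE 0.30, edgeR adjusted p = 0.362). Naip1 averaged 62.9 ± 17.1 and 84.7 ± 25.4 CPM (−0.43, SE 0.21, edgeR adjusted p = 0.320). Nlrc4 averaged 31.7 ± 3.29 and 37.3 ± 6.54 CPM (−0.24, SE 0.11, edgeR adjusted p = 0.313). For Naip2 the averages were 65.7 ± 6.48 and 67.0 ± 8.08 CPM (−0.03, SE 0.10), with n = 5 in each group throughout.

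By edgeR's quasi-likelihood test 0 of the 5 were called in C362A against WT at a Benjamini-Hochberg adjusted p under 0.05, where 0.0817% of all genes were called. DESeq2 and limma-voom also called 0. At an unadjusted p under 0.05, 2 of 5 were lower, Naip5 and Nlrc4, while 7.8% of all genes passed and were lower and 15.9% passed in either direction. The median log2 fold change of the 5 genes was −0.43, against 0.01 over all genes tested. The estimates moved with single libraries. Without C362A replicate 5, Naip5 was called at −0.93 (SE 0.20, edgeR adjusted p = 0.0237), with 1 of 5 genes called, but 9.76% of all genes were then called too. Naip6 was then at −0.88 (SE 0.26, edgeR adjusted p = 0.0505). Without WT replicate 4, Naip5 was at −0.49 (edgeR adjusted p = 0.658) and Nlrc4 at −0.15 (edgeR adjusted p = 0.687).

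In KO against WT no difference between the 5 genes' means passed the test. Casp8 itself was at 14.4 ± 1.65 CPM in KO and 70.1 ± 5.97 CPM in WT (SD, n = 5 each), and at 69.9 ± 3.41 CPM in C362A, where counts cannot show the substitution. Naip1 averaged 94.1 ± 6.10 CPM in KO and 84.7 ± 25.4 CPM in WT (0.15, SE 0.21), Naip2 70.1 ± 7.94 and 67.0 ± 8.08 CPM (0.07, SE 0.10), and Nlrc4 39.2 ± 3.66 and 37.3 ± 6.54 CPM (0.07, SE 0.11). Naip5 at 79.0 ± 14.1 CPM in KO and Naip6 at 107.5 ± 22.2 CPM in KO had log2 fold changes of 0.01 (SE 0.26) and −0.00078 (SE 0.30). By edgeR 0 of 5 were called, where 0.0381% of all genes were, and 0 of 5 had an unadjusted p under 0.05, where 2.43% of all genes did. DESeq2 and limma-voom called 0. In the same fit a log2 fold change of −0.64 in Naip5, in C362A against WT, did not pass.

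Setting C362A against KO compares an inactive caspase-8 protein with no protein, and also tissue labelled inflamed with tissue labelled normal. Here too all 5 genes were lower in mean without passing. The log2 fold changes were −0.65 (SE 0.26) for Naip5, −0.58 (SE 0.21) for Naip1, −0.56 (SE 0.30) for Naip6, −0.31 (SE 0.11) for Nlrc4 and −0.10 (SE 0.10) for Naip2, with edgeR adjusted p from 0.317 to 0.661. By edgeR, DESeq2 and limma-voom 0 of 5 were called, and edgeR called 0.0109% of all genes. At an unadjusted p under 0.05, 3 of 5 were lower, Naip1, Naip5 and Nlrc4, while 7.41% of all genes passed and were lower and 13.9% passed in either direction. This comparison uses the same C362A libraries as the one with WT. Without C362A replicate 5, Naip5 was called at −0.95 (edgeR adjusted p = 0.0396), where 4.35% of all genes were called.

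**Figure D3:**
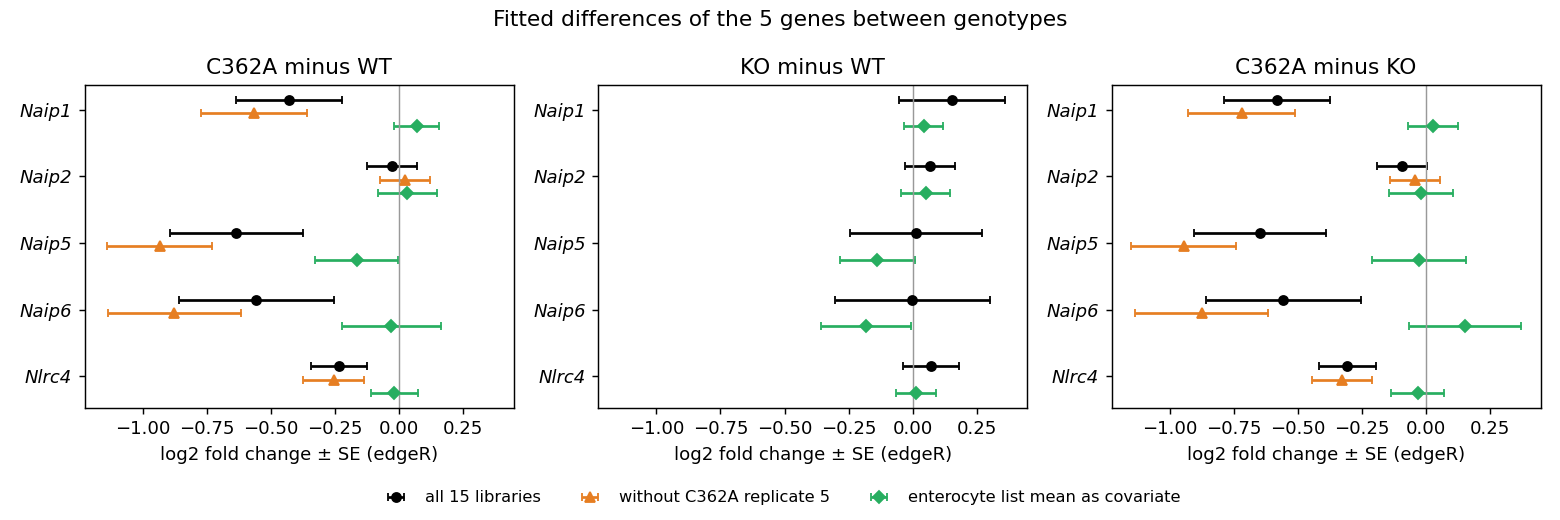
Log2 fold change ± SE from edgeR (horizontal axis) for each gene (vertical axis) in the 3 comparisons, with all libraries (black), without C362A replicate 5 (orange, not drawn for KO minus WT) and with the enterocyte list as covariate (green). In C362A minus WT, Naip5 lies at −0.64 with all libraries, at −0.93 without C362A replicate 5 and at −0.17 with the covariate.

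The sample ID numbers in the labels fall into 2 consecutive runs that each hold all genotypes, and the lower means of Naip5 and Naip6 in C362A than in WT were seen in the second run only. In run 2, with 3 libraries per genotype, Naip5 averaged 37.2 CPM in C362A, 71.9 CPM in KO and 87.8 CPM in WT. Its C362A libraries in run 2 all lay below the KO and WT libraries, as did those of Naip6 and Naip1, a separation found for 10.3% of all genes tested. In run 1, with 2 libraries per genotype, Naip5 averaged 70.2, 89.6 and 64.2 CPM in the same order. Naip6 averaged 51.3 CPM in C362A, 94.2 CPM in KO and 122 CPM in WT in run 2, and 105.7, 127 and 85.7 CPM in run 1. Against KO, the C362A mean was lower for all 5 genes in both runs. Naip2 averaged 69.4 CPM in C362A and 70.6 CPM in WT in run 2, and 60.1 and 61.5 CPM in run 1. Fitted on run 2 alone, an alternative chosen after seeing the data, Naip5 (−1.24, edgeR adjusted p = 0.00320) and Naip6 (−1.25, edgeR adjusted p = 0.0112) were called in C362A against WT, with 13.5% of all genes. Against KO, Naip5 was called (−0.95, edgeR adjusted p = 0.0358), with 2.03% of all genes. The C362A minus WT effect in run 2 minus that in run 1 was −1.36 (SE 0.37) for Naip5 and −1.55 (SE 0.44) for Naip6, and neither passed as an interaction over all genes (edgeR adjusted p = 0.104 and 0.122), where 1.42% of all genes passed. At an unadjusted p under 0.05 this interaction held Naip5, Naip6 and Nlrc4, and 3028 of the 18370 genes tested. The KO minus WT effect in run 2 minus that in run 1 had the same sign, at −0.77 (SE 0.37) for Naip5 and −0.95 (SE 0.43) for Naip6. Neither passed (edgeR adjusted p = 0.404 and 0.389), where 0 of the 18370 genes did. The labels do not say what the runs stand for.

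Markers of absorptive enterocytes moved with the same libraries. All 20 genes of the enterocyte list, among them Fabp1, Apoa4, Alpi and Lct, were expressed. Their summed level ran from 8680 to 19018 CPM in C362A (median 12223), from 19876 to 23965 CPM in KO (median 21639) and from 12098 to 36154 CPM in WT (median 19710). All 20 had a negative log2 fold change in C362A against WT, with a median of −0.61, and 0 of 20 were called by edgeR, with 15 lower at an unadjusted p under 0.05. In C362A against KO all 20 were lower too, each at an unadjusted p under 0.05, with a median log2 fold change of −0.64. By edgeR 0 of 20 were called there, where 7.41% of all genes were lower at that unadjusted p. General epithelial genes such as Epcam and Cdh1 moved less, with a summed 4058 to 4530 CPM in C362A, 3702 to 4871 CPM in KO and 4115 to 4958 CPM in WT. All 11 had a negative log2 fold change in C362A against WT, with a median of −0.07. By edgeR 0 were called, and Cdx1 (−0.21) alone was lower at an unadjusted p under 0.05. Myeloid markers such as Adgre1 and Csf1r, which mark another cell type known to use this inflammasome, summed to 290 to 364 CPM in C362A, 266 to 344 CPM in KO and 232 to 345 CPM in WT. Of these 12 genes, Adgre1 was called higher in C362A than in WT (0.75, SE 0.13, edgeR adjusted p = 0.0361). Neutrophil genes summed to 9.92 to 83.3 CPM in C362A, 11.2 to 58.5 CPM in KO and 8.10 to 35.3 CPM in WT, and mesenchymal genes to 6785 to 9272, 6689 to 8456 and 5859 to 7905 CPM in the same order. In C362A against WT the log2 fold change was positive for 11 of 12 myeloid genes, 5 of them at an unadjusted p under 0.05, for 8 of 8 mesenchymal genes, 5 of them so, and for 7 of 7 neutrophil genes tested, 2 of them so. Of 5 endothelial genes 4 were higher and 1 lower at that p. Of all genes tested, 15.9% passed that p in either direction. Relations of the NAIP-NLRC4 genes to the neutrophil, mesenchymal and endothelial lists were not tested. Pancreas and liver genes summed to 293 to 473 CPM in C362A, 349 to 1276 CPM in KO and 162 to 763 CPM in WT. Stomach markers summed to at most 14.9 CPM in any library, with 1 of 9 without a count in KO and 1 in WT. In whole tissue, fewer cells of a type and less RNA per cell cannot be told apart.

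Across the 15 libraries the levels of 4 of the 5 genes followed the enterocyte list. Naip1 had a Pearson r of 0.965 and a Spearman rho of 0.936 with the mean log2 CPM of that list. Naip5 had 0.899 and 0.821, Naip6 0.884 and 0.793, and Nlrc4 0.865 and 0.854. After adjustment over 20 relations, the two-sided permutation p from 100000 resamples was 0.0001 for each r and at most 0.00243 for each rho. For Naip2 the values were 0.309 and 0.396 (permutation adjusted p = 0.403 for r). The permutation sets each relation against shuffled libraries only. How many other genes follow the list as closely was not counted. The list was chosen with earlier results of these data known. With the 2 libraries farthest from the median left out, r was 0.949 for Naip1, 0.824 for Naip5, 0.783 for Naip6, 0.770 for Nlrc4 and 0.244 for Naip2. With genotype means removed it was 0.945, 0.835, 0.840, 0.775 and 0.227 in that order. Within run 1 (6 libraries) r was 0.974, 0.908, 0.858, 0.837 and 0.561, and within run 2 (9 libraries) 0.971, 0.898, 0.897, 0.905 and 0.717 in the same order. For Naip2 the relation within each run was thus stronger than over all libraries. With the myeloid list, r lay between −0.267 and 0.262 for the 5 genes and none passed by permutation, at adjusted p from 0.462 to 0.957. With genotype means removed, r ran from 0.091 (Naip5) to 0.491 (Nlrc4). Within run 1 it ran from 0.236 (Naip2) to 0.712 (Nlrc4), and within run 2 from −0.411 (Naip5) to 0.296 (Naip2). For all but Naip2 the sign in run 2 was opposite to that in run 1.

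**Figure D4:**
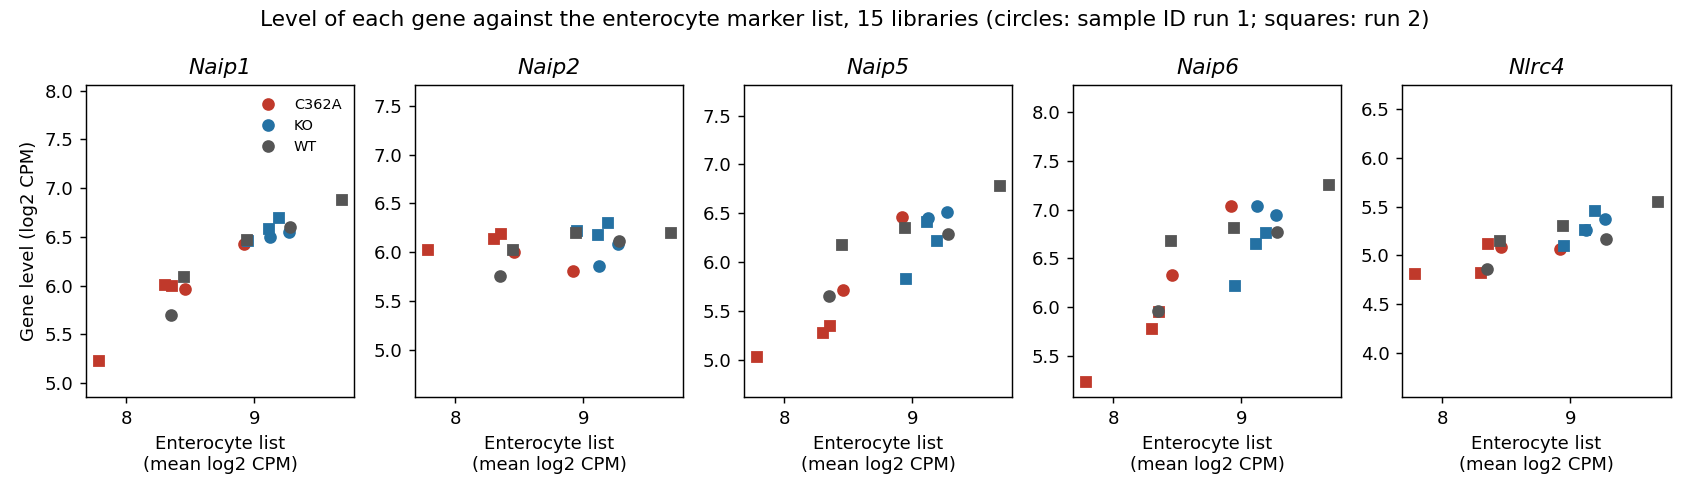
Log2 CPM of each gene (vertical axis, all panels 3.2 log2 units high) against the mean log2 CPM of the 20 enterocyte genes (horizontal axis) in the 15 libraries, coloured by genotype. Naip1 rises along a narrow band (r = 0.965), and Naip2 stays nearly flat (r = 0.309).

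When the mean of the enterocyte list entered the fit as a covariate, the C362A minus WT estimates lay between −0.17 and 0.07. The log2 fold change was −0.17 (SE 0.16) for Naip5, −0.03 (SE 0.19) for Naip6, −0.02 for Nlrc4, 0.07 for Naip1 and 0.03 for Naip2, all with edgeR adjusted p of at least 0.983. With the epithelium list as covariate, added after seeing the data, Naip5 was at −0.66, Naip6 at −0.63, Naip1 at −0.33, Nlrc4 at −0.22 and Naip2 at 0.046. The enterocyte mean was itself lower in C362A, at 8.36 ± 0.40 log2 CPM against 8.94 ± 0.56 in WT (SD, n = 5), so genotype and this covariate cannot be told apart.

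Some pairs of the genes also followed each other. Naip5 and Naip6, both flagellin sensors and the closest pair in sequence, had r = 0.974 and rho = 0.946 over 15 libraries, with a permutation p of 1e-05, the smallest that 100000 resamples can give. Within run 1 and run 2 their r was 0.966 and 0.976, with the 2 farthest libraries left out 0.960, and with genotype means removed 0.971. Among 14442 genes whose mean log2 CPM was 1 or more, Naip6 ranked 13th by r with Naip5. Naip1 had r = 0.864 with Naip5, 0.879 with Naip6 and 0.852 with Nlrc4 (permutation adjusted p of r at most 0.000125). By r with Naip1 they ranked 673rd, 571st and 745th of the 14442 genes, so many other genes followed Naip1 more closely. Nlrc4 had r = 0.822 with Naip5 and 0.829 with Naip6 (permutation adjusted p = 0.00028 and 0.000178). It ranked 957th by r with Naip5 and 799th by r with Naip6. Naip2 had r = 0.046 with Naip5 and 0.044 with Naip6 (permutation adjusted p = 0.922 for both), although it lies next to Naip5 in the cluster. Within runs these r were higher, at 0.250 and 0.266 in run 1 and 0.426 and 0.491 in run 2. With Naip1 and Nlrc4, Naip2 had r = 0.409 and 0.466 (permutation adjusted p = 0.214 and 0.145). Within run 1 those were 0.525 and 0.644, and within run 2 0.767 and 0.639. How far reads shared between the near-identical copies add to the r between Naip genes was not tested.

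The balance within the family differed between libraries. Naip2 made up 31.9 ± 8.88% of the summed RPKM of the 4 Naip genes in C362A, 23.6 ± 3.95% in KO and 23.9 ± 3.38% in WT (SD, n = 5). In single C362A libraries that share ran from 18.5% to 42.2%, and in WT from 19.2% to 28.5%. The log2 ratio of Naip5 to Naip2 RPKM averaged −0.62 ± 0.68 in C362A, 0.01 ± 0.40 in KO and 0.04 ± 0.24 in WT. The log2 ratio of Naip6 to Naip5 changed little, at 0.16 ± 0.17 in C362A, 0.09 ± 0.14 in KO and 0.10 ± 0.08 in WT.

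Promoter sequences were compared among Naip5, Naip2 and Naip1. RefSeq windows of 250 bases before to 50 after the start site were found for all 5 genes, and the last 100 bases before the start are shown for Naip5 (chr13:100247337-100247436), Naip2 (chr13:100202123-100202222) and Naip1 (chr13:100452865-100452964), all on the minus strand of GRCm38.p6, because those of Naip5 and Naip2 are closely alike. For Naip5 the start in the promoter table lies 3594 bases inside the RefSeq span of the gene, so the stretch shown lies within the annotated gene. Capitals mark runs of at least 8 bases shared with Naip2 in the first line and with Naip5 in the other lines.
Naip5: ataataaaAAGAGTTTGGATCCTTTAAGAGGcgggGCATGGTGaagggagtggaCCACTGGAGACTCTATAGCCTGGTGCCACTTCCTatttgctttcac
Naip2: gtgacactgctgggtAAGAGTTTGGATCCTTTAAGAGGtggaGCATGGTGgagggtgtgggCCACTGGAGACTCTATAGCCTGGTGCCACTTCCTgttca
Naip1: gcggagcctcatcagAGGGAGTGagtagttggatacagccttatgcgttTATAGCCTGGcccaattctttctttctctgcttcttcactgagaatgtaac
Naip5 and Naip2 were 77.6% identical over an alignment of these stretches, with a longest common run of 34 bases. Naip5 and Naip1 were 49.2% identical. That run, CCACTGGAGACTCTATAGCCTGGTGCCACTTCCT, occurred on either strand in 2 of 27025 promoter windows, or 0.0074%, those of Naip2 and Naip5. It was taken from these sequences, so its rarity is a description. The RefSeq window of Naip6 is not shown and was not aligned with the others, though it was searched for strings. The reason is that the GENCODE transcript of that gene begins 1058 bases farther upstream, so the window lies inside the transcribed gene. The Naip5 stretch also lies within its annotated gene and was shown all the same. Without an aligned Naip6 window, the identity of Naip5 and Naip2 cannot be called particular to that pair. The starts of Naip5 and Naip1 also differ between the annotations, with the RefSeq start upstream (GENCODE minus RefSeq position −1013 and −6353 bases).

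A few letter strings of factors known in gut epithelium or myeloid cells were searched on both strands of the 5 windows. CAAAGTCC, part of the HNF4 motif, occurred in Nlrc4 and in 1.44% of all windows. TTTATNG, from the CDX motif, occurred in Naip1 and in 11.3% of all windows. The string GATAAG, bound by factors of the GATA family, is in 7.43% of all windows, GAGGAAGT, bound by the myeloid factor PU.1, in 3.28%, and the interferon response element in 3.49%. These occurred in none of the 5. No window of the 5 held more than 1 of these strings, and a missing string says only that these letters are absent there.

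Of the 19 other genes of the pathway, 0 were called in C362A against WT by edgeR, DESeq2 or limma-voom. By edgeR 1 had an unadjusted p under 0.05, where 15.9% of all genes did. That gene was Pla2g4a, which releases arachidonic acid for eicosanoids made downstream of NLRC4, at 47.8 ± 10.3 CPM in C362A and 36.8 ± 4.62 CPM in WT (0.38, SE 0.13, edgeR adjusted p = 0.285). Next by p were Casp1, the protease that NLRC4 activates, at 9.87 ± 4.59 and 18.4 ± 11.7 CPM (−0.89, SE 0.42, edgeR adjusted p = 0.316), and Il18, its cytokine substrate, at 10.1 ± 2.69 and 13.5 ± 3.96 CPM (−0.42, SE 0.20, edgeR adjusted p = 0.317). The median log2 fold change of the list was −0.09, with 12 negative and 7 positive.

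Without C362A replicate 5, Pla2g4a (0.48, edgeR adjusted p = 0.0201) and Gsdmd, the pore-forming target of caspase-1 (−0.65, edgeR adjusted p = 0.0365), were called against WT, 2 of 19 where 9.76% of all genes were called. Both were also called against KO (0.44 and −0.65, edgeR adjusted p = 0.0409 and 0.0487), where 4.35% of all genes were. In run 2 alone 5 of 19 were called against WT, where 13.5% of all genes were. These were Pla2g4a, Gsdmd, Il18, Il1a, an alarmin cytokine (−1.49), and Il18bp, which encodes a decoy for IL-18 (−1.51). With all libraries Gsdmd was at 82.3 ± 30.6 CPM in C362A and 108.4 ± 33.9 CPM in WT (−0.40, SE 0.23). Pycard, which encodes ASC, stood at 249.6 ± 32.1 CPM in C362A and 265 ± 22.1 CPM in WT. Il1b, the other cytokine substrate, was low, at 1.47 ± 0.372 and 0.960 ± 0.462 CPM. Per length Casp1 averaged 6.33 ± 2.92 RPKM in C362A and 11.8 ± 7.58 RPKM in WT, a level in WT between those of Nlrc4 and Naip2.

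In KO against WT, Casp8 was the 1 called gene of the 19 (−2.28, SE 0.08, edgeR adjusted p = 2.55e-11). The next smallest p belonged to Ptgs1, a cyclooxygenase gene (0.13, SE 0.08), and Ptgs2, its inducible relative (0.19, SE 0.15), both with edgeR adjusted p near 1. In C362A against KO, Casp8 was again the 1 called gene (2.28, SE 0.08), followed by Pla2g4a (0.33, SE 0.13, edgeR adjusted p = 0.317) and Il18 (−0.49, SE 0.20, edgeR adjusted p = 0.322). Among 9 sensors of other inflammasome or NOD-like pathways, Nlrp6, an intestinal epithelial sensor, was the only 1 with a group mean above 12 CPM, at a mean of 218 CPM in C362A, 275 CPM in KO and 262 CPM in WT. None of the 9 was called in any comparison by edgeR. Nlrp6 alone had an unadjusted p under 0.05, in C362A against WT and in C362A against KO. Of all genes 15.9% and 13.9% did in these comparisons.

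The genes whose pattern over the 15 libraries was most like that of each sensor were taken by Pearson r among 14442 genes, as a description. For Naip1 they included Sult1b1, Btnl6, Abcc2 and Mcoln3 (r from 0.976 to 0.984). For Naip5 the closest was Entrez ID 53880 (r = 0.996), which the annotation tables used here do not name and which had 777 to 2534 counts per library. Whether this ID shares sequence with the Naip genes is not known here, so neither is what that r means. It was followed by Slc38a6, Gm9926, Als2cl and Dgkq (0.979 to 0.986). For Naip6 they were Slc39a14, ID 53880, Hps5, Helz2 and Ralgps1 (0.976 to 0.983). For Nlrc4 they were Fbxl5, Abr, Mfsd4b3-ps, Pde6a and Lpgat1 (0.919 to 0.937). For Naip2 a different set came first, Bche, Lypla1, Otc, Smim31 and Rnft1 (0.870 to 0.931). With genotype means removed, each gene named here had an r of at least 0.878 with its sensor or adaptor.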

How the data were processed

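The authors' deposited counts are reads that aligned uniquely to a gene model, per the file headers, and the deposited RPKM values carry a size factor per library, per the file headers. Alignment used GSNAP and GRCm38, per the submitters' processing notes. Neither the aligner's version nor the annotation is given in the sources used here. Total RNA (0.5 ug) was made into polyA libraries without strand marks and read as single 50-base reads, per the labels' protocols, so antisense reads cannot be told apart.

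IDs were named from RefSeq (31049) and GENCODE (78). The main test was edgeR 4.0.16 (R 4.3.3), quasi-likelihood with TMM factors, filterByExpr (minimum count 10, total 15) and robust estimates, on all 15 libraries with a mean per genotype. Calls are Benjamini-Hochberg adjusted p under 0.05 over 18370 genes. The fit was tested on simulated data. DESeq2 1.42.0 and limma 3.58.1 (voom, and log2(RPKM + 1)) were alternatives. CPM for correlations used a prior count of 2. Replicates were numbered by accession and pair nothing. Chi-square per gene between same-genotype libraries was 10.7 to 138, above sampling noise. Each library was counted as 1 sample, though this value cannot show that libraries came from separate animals. The text names all 5 genes, the 3 smallest p and, with all libraries, the calls of the pathway list, and the 5 genes most like each of the 5, of which 1 is not reported here. Other genes named were chosen after their values were seen. The members and lists were chosen with earlier results of these data known.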

Additional observations from a re-analysis of the deposited data

How the results depend on the processing

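No paired analysis was possible because the labels give no replicate numbers. The number of the 5 genes called was 0 in every comparison under each alternative except those named here. Leaving out 1 library gave 0 to 1 in C362A against WT and 0 to 1 in C362A against KO, where the 1 was Naip5 without C362A replicate 5. Sample ID run 2 alone, chosen after seeing the data, gave 2 and 1, while the block for sample ID runs gave 0. Of the 19 pathway genes, 0 to 2 were called in C362A against WT and 1 to 3 in C362A against KO when 1 library was left out, and 5 and 2 in run 2 alone. The highest counts came without C362A replicate 5, where 9.76% and 4.35% of all genes were called, and in run 2 alone 13.5% and 2.03% were. Over the fits without 1 library the adjusted p of Naip5 in C362A against WT ran from 0.0237 to 0.658 by edgeR.
In run 2 alone Naip5 was at −1.24 and Naip6 at −1.25 against WT, and Naip5 at −0.95 against KO. In run 1 alone Naip5 (0.12), Naip6 (0.30) and Nlrc4 (0.053) had the opposite sign in C362A against WT, and Naip6 was at 0.57 in KO against WT. With the enterocyte covariate the sign turned in C362A against WT for Naip1 (0.068) and Naip2 (0.031), in C362A against KO for Naip1 (0.026) and Naip6 (0.15), and in KO against WT for Naip5 (−0.14). With the epithelium covariate it turned for Naip2 in C362A against WT (0.046) and for Naip5 in KO against WT (−0.0042). In KO against WT the block for sample ID runs gave −0.021 for Naip5, run 2 alone gave −0.29 for Naip5 and −0.065 for Nlrc4, and Naip6 was at 0.028 by limma-voom and 0.024 by limma on log2(RPKM + 1). Without 1 library, Naip2 in C362A against WT ran from −0.10 to 0.02, and in KO against WT Naip2 ran from −0.0019 to 0.13, Naip5 from −0.11 to 0.16, Naip6 from −0.15 to 0.16 and Nlrc4 from −0.0064 to 0.17. None of these sign changes passed the test, and the cause was not tested. Depth did not limit the 5 genes, each with at least 901 counts in every library.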
